A study of Mus musculus with 18 samples.

Results

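The Notch signalling genes of mouse thymocytes were followed with age: the receptors Notch1, Notch2 and Notch3, the ligands Dll1 and Jag1, the glycosyltransferase Lfng, and Dtx1, Hes1, Hey1 and Nrarp, which are known as targets or regulators of the pathway. Members were the non-control probes carrying 1 of these 10 gene names on an Agilent mouse array. The rule found 11 probes for 9 of the 10 genes, of 41174 non-control probes in all. Jag1 and Lfng had 2 probes each, and Notch2 had none under its own name. All 11 passed the filter on dim probes, as did 37448 probes overall.

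RNA came from thymocytes of C57BL/6 mice aged 1, 6, 16 and 24 months, freshly isolated by straining the dissociated organ, washing off fat cells and lysing red cells. No gene was altered and no agent was given, and no sorting step is described, so that other thymic cells could be carried along. Each of 9 arrays compared a mouse of 6, 16 or 24 months (3 mice per age, labelled with Cy3) with 1 month RNA labelled with Cy5. The design text calls the 1 month RNA a pool, whereas the sample labels number 9 single 1 month mice. The dyes were never exchanged, so age and dye cannot be told apart in any comparison with 1 month. Comparisons between the older ages share that dye orientation.

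Notch receptors are surface proteins that are cut when a ligand on a neighbouring cell binds them. The released intracellular part enters the nucleus and joins the DNA-binding protein RBPJ and Mastermind co-activators to switch on target genes. In the thymus, Notch1 signalling is known to commit progenitors to the T lineage and to carry them through the early stages that precede expression of CD4 and CD8. Stromal cells of the thymus supply the ligands.

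RBPJ recognises a core motif, TGGGAA, and the stretch before the gene start was read for it on both strands. RefSeq sequence (GRCm38.p6) of the 250 bases before an annotated start was given for 8 of the 10 members, in 9 windows since Dll1 has 2. The Dtx1 window lies mostly within the annotated gene, and a Dll1 window lies wholly within it. For these the start used is inside the gene, so the stretch before the outermost start was not fully read for Dtx1. Hes1 and Hey1 were not matched. The motif lay in 1 of the 9 windows, that of Lfng, which holds 2 matches starting 108 and 135 bases before the start. Of all 32851 promoter windows of that length, 21.6% held at least 1 match and 2.8% held 2 or more. Lfng is shown as the member with the motif and Nrarp as a member without it, with the matches on either strand in capitals. The Lfng window is chr5:140607091-140607340 on the plus strand, and the Nrarp window is chr2:25180508-25180757 on the plus strand.
Lfng: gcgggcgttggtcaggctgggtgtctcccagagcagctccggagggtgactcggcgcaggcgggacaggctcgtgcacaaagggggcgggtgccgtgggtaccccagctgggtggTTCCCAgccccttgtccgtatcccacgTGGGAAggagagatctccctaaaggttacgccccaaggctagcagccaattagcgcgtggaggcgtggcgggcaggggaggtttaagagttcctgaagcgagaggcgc
Nrarp: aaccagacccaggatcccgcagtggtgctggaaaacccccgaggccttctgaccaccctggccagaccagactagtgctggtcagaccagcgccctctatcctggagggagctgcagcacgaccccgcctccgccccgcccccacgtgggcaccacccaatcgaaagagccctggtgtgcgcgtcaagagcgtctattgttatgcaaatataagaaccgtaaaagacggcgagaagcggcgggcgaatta
The absence of these letters says nothing about the factor beyond these windows.

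Values are log2 ratios of the older mouse's signal to the 1 month signal on the same array, after Feature Extraction's background subtraction and dye normalization. A value of 0 means the 1 month level. Well above background in Cy3 were 79.7% to 94.2% of non-control spots, lowest on replicate 2 of 24 months, and 90.5% to 95.4% in Cy5. All 11 genes of the thymocyte marker list (Cd3e, Cd4, Cd8a, Rag1 and others) were above background on every array. The list's mean log2 ratio ran from 0.11 to 0.40. Its genes differed: over all arrays Cd8b1 ran from 0.39 to 1.51, but Cd8a from -0.60 to -0.27. Haemoglobin RNA set arrays apart: the mean log2 ratio of 6 haemoglobin probes was -1.74, -1.72 and -1.09 at 6 months, 1.80, 1.29 and -0.63 at 16 months, and -1.63, 0.42 and 1.35 at 24 months.

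**Figure D1:**
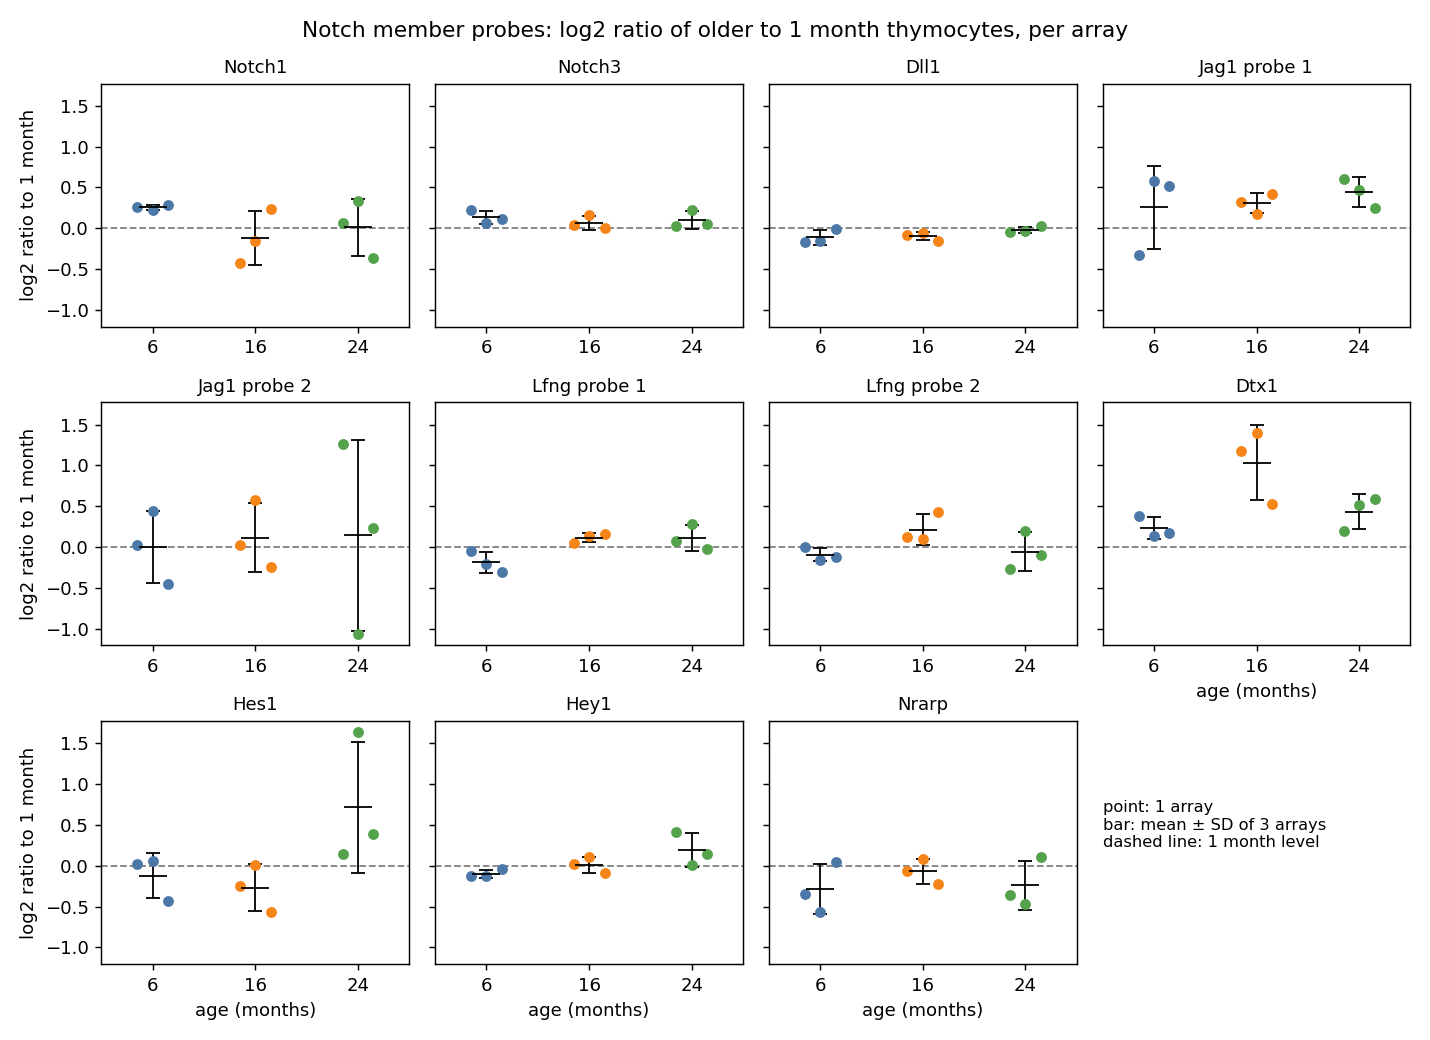
Log2 ratio (y axis) of each member probe to 1 month RNA by age in months (x axis), with 1 point per array and bars for mean ± SD of 3 arrays; the dashed line is the 1 month level and probe 1 is the brighter probe of a gene. Dtx1 lies above the line on 9 of 9 arrays and is highest at 16 months, and Notch3 and Dll1 stay within 0.23 of the line.

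Dtx1 (probe A_51_P202050) encodes Deltex 1, a cytoplasmic E3 ubiquitin ligase that binds the Notch intracellular domain, and its transcript is widely used as a readout of Notch signalling in T cells. Its log2 ratio was 0.38, 0.14 and 0.18 on the 6 month arrays, 1.18, 1.40 and 0.52 on the 16 month arrays, and 0.20, 0.51 and 0.59 on the 24 month arrays. All 9 arrays lay above the 1 month level, and 2 of the 16 month arrays lay above all others. At 16 months the mean was 1.03 ± 0.46 (SD, n = 3), a 2.05-fold rise over 1 month with SE 0.16 and adjusted p = 0.00596 by limma. It was 1 of the 11 member probes to pass there, at a background of 18% of all probes, or 11.4% counting those higher. With normexp background correction, median centring and no loess dye normalization, the value was 0.59 (adjusted p = 0.0190), and with normexp and loess it was 0.85 (adjusted p = 0.00358). In the authors' deposited scores, which are on another scale, the difference was 0.43 score units (adjusted p = 0.00731). In bulk RNA, more cells of a type and more transcript per cell cannot be told apart.

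The means at 6 months (0.23 ± 0.13) and at 24 months (0.43 ± 0.21) did not pass the threshold, with limma adjusted p of 0.342 and 0.0754. No member passed at 6 months, where 12.4% of all probes did, or at 24 months, where 24.9% did. The Cy3 signal of Dtx1 was 2682, 3488 and 1889 units on the 16 month arrays, against Cy5 signals of 1183, 1322 and 1315 units for 1 month RNA on the same arrays. Over all 9 arrays the Cy3 signal spanned 1139 to 3488 units, whereas the Cy5 signal kept between 797.6 and 1322 units. The spread in the ratio therefore lay mostly in the older mice's channel.

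Between ages, Dtx1 was 0.80 higher at 16 than at 6 months on the log2 scale (95% confidence interval 0.29 to 1.31), with no overlap between the 3 arrays of each age. The limma p was 0.00664 before adjustment and 0.769 after it. At 24 months it was lower than at 16 months by a log2 difference of -0.60 (interval -1.11 to -0.09; adjusted p = 0.862), and these arrays overlapped. Neither difference passed the threshold.

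The arrays with the highest Dtx1, replicates 1 and 2 of 16 months, were also those with haemoglobin log2 ratios of 1.80 and 1.29, while replicate 3 had a Dtx1 ratio of 0.52 beside a haemoglobin ratio of -0.63. With the haemoglobin ratio as a covariate, Dtx1 stood 0.87 above 1 month at 16 months (adjusted p = 0.0111). With both high arrays left out, an alternative chosen after seeing the data, the single remaining array gave 0.52 (adjusted p = 0.282). Fitted on the 16 month arrays alone, the value of 1.03 had an adjusted p of 0.0537. Replicate 3 of 24 months had a haemoglobin ratio of 1.35 and a Dtx1 ratio of 0.59.

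List means of cell type markers also differed between the 6 and 16 month arrays. The 5 early thymocyte markers measured (Kit, Il2ra, Cd44, Il7r and Ptcra) had a mean log2 ratio of 0.23 to 0.44 on the 16 month arrays, against -0.00 to 0.16 on the 6 month arrays. Their summed Cy3 signal was 16800 to 18520 units, against 13350 to 15310 units. Between these ages Il7r differed by 0.98, Il2ra by 0.12 and Ptcra by -0.02, none past the threshold (limma adjusted p of 0.769, 0.945 and 0.981). The list mean thus leaned largely on Il7r. The 9 B cell markers had a mean log2 ratio of 0.18 to 0.52 at 16 months, against -0.05 to 0.03 at 6 months, with summed Cy3 signals of 22030 to 30200 units, against 15550 to 20640 units. All genes of both lists were above background on every array of these ages. The 10 macrophage and dendritic cell markers had a mean log2 ratio of 0.12 to 0.41 at 16 months, against -0.19 to -0.13 at 6 months, with summed Cy3 signals of 46410 to 83030 units, against 24790 to 27800 units. The 11 stroma and endothelium markers had a mean of 0.13 to 0.43 at 16 months, against -0.02 to 0.06 at 6 months, with summed Cy3 signals of 14250 to 18950 units, against 10930 to 14160 units. Of these 2 lists at least 9 genes were above background on every array. Single markers within these lists differed widely over all arrays. Among B cell markers Blnk ran from -0.42 to 2.09 and Ms4a1 from -0.12 to 1.10, but Cr2 from -0.13 to 0.05. Lyz1 ran from -0.14 to 1.97 but Cd68 from -0.40 to 0.16, and Dcn from 0.69 to 2.92 but Col1a1 from -0.10 to 0.04. The means thus do not stand for each list as a whole. The part of these cell types in the Dtx1 result was not tested.

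**Figure D2:**
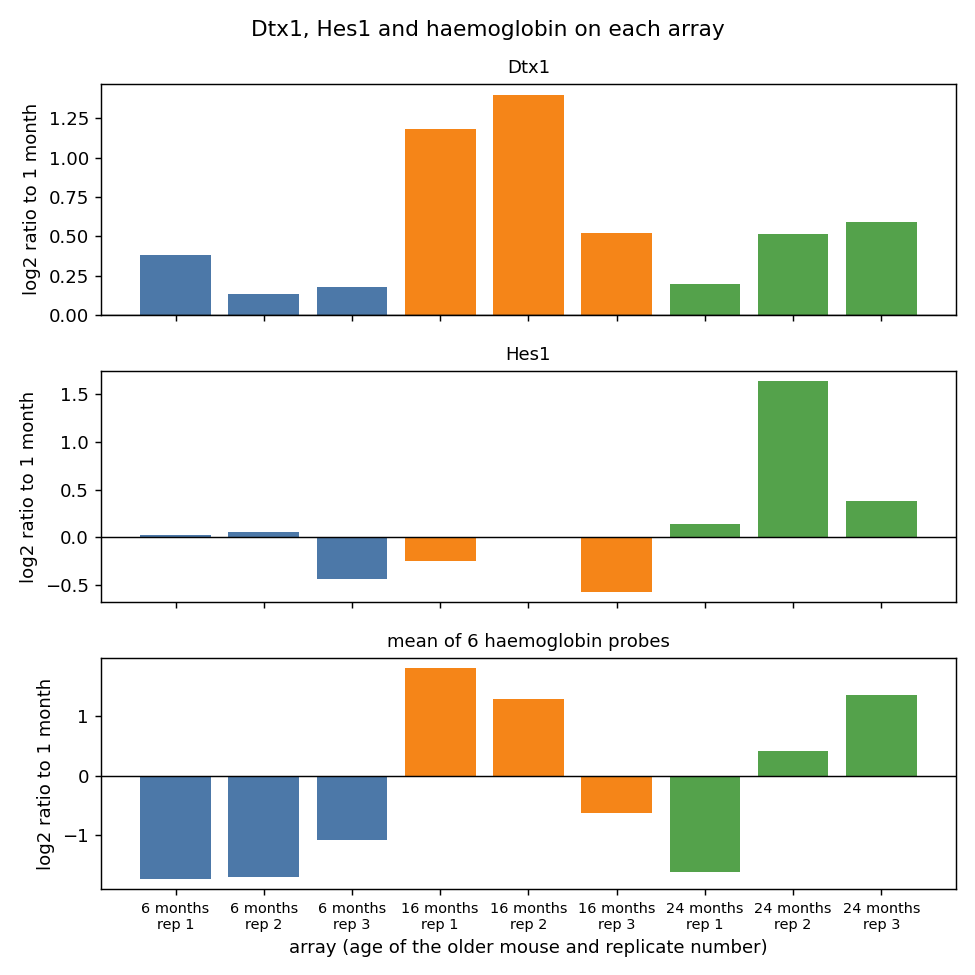
Log2 ratio to 1 month RNA (y axes) of Dtx1, Hes1 and the mean of 6 haemoglobin probes on each of the 9 arrays (x axis, age and replicate). The highest Dtx1 bars, 1.18 and 1.40, stand above haemoglobin ratios of 1.80 and 1.29, and the Hes1 bar of 1.64 is replicate 2 of 24 months.

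Hes1 (A_51_P498093) encodes a transcriptional repressor of the basic helix-loop-helix class and is a direct Notch target. Its log2 ratio was 0.02, 0.05 and -0.43 at 6 months, -0.25, 0.01 and -0.57 at 16 months, and 0.14, 1.64 and 0.38 at 24 months. Each of the 24 month arrays lay above all 6 others. By far the highest was replicate 2, where the Cy3 signal was 516.9 units against 95.7 to 233.3 units on the other 8 arrays. Hes1 was 0.84 higher at 24 than at 6 months (SE 0.37, limma adjusted p = 0.553) and 0.99 higher at 24 than at 16 months (SE 0.37, adjusted p = 0.862). Neither passed the threshold, nor did the value of 0.72 against 1 month (adjusted p = 0.0793). The value against 1 month did pass with normexp, median centring and no loess, at 0.82 (adjusted p = 0.00425), a setting that also called Hes1 higher at 6 months (0.68, adjusted p = 0.0194). With normexp and loess in place of the processed signals the 3 values were 0.22, 0.33 and 0.17. Without replicate 2, which is also the array with the fewest spots above background, they were 0.38, 0.53 and 0.26. The probe is dim: on replicate 3 of 6 months it was not well above background in Cy3.

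Hey1 (A_51_P258409), a related repressor and Notch target best known from vessels and heart, stayed within 0.42 of the 1 month level. It measured -0.12, -0.12 and -0.04 at 6 months, 0.02, 0.11 and -0.08 at 16 months, and 0.42, 0.02 and 0.14 at 24 months. Arrays of 24 months did not overlap those of 6 months, with a log2 difference of 0.29 (interval 0.04 to 0.54; limma adjusted p = 0.528). The mean log2 ratio of the stroma and endothelium markers, cells in which Hey1 is known, was 0.52, 0.02 and 0.13 on the same 24 month arrays and 0.05, 0.06 and -0.02 on the 6 month arrays. The markers of this list did not move as a group. Over all 9 arrays Dcn ran from 0.69 to 2.92 and Cdh5 from 0.085 to 0.90. Col1a1 ran from -0.10 to 0.04 and Kdr from -0.39 to 0.05. The part of stroma and endothelium in the Hey1 values was not tested. Nrarp (A_51_P504354), a small ankyrin repeat protein that is induced by Notch and dampens it, gave -0.35, -0.56 and 0.05 at 6 months, -0.06, 0.09 and -0.22 at 16 months, and -0.35, -0.47 and 0.10 at 24 months. It was below the 1 month level on 6 of 9 arrays and above background in Cy3 on 8, the ages overlapped, and its adjusted p against 1 month ran from 0.202 to 0.772. Under normexp with median centring and no loess its 24 month value was 0.28 (adjusted p = 0.0496).

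Notch1 (A_52_P183088) is the receptor that drives T lineage commitment. Its 6 month arrays were close together at 0.26, 0.22 and 0.28, whereas the older ages scattered, with -0.42, -0.16 and 0.23 at 16 months and 0.07, 0.33 and -0.36 at 24 months. The SD was 0.33 at 16 months and 0.35 at 24 months, against 0.03 at 6 months. Mean differences were -0.37 at 16 against 6 months (adjusted p = 0.770) and -0.24 at 24 against 6 months (adjusted p = 0.732), and the ages overlapped in both. The 3 arrays on which Notch1 lay below the 1 month level were those with the highest haemoglobin ratios, 1.80, 1.29 and 1.35. With haemoglobin as a covariate the differences were -0.01 and -0.0017, neither past the threshold. Haemoglobin was low on every 6 month array (-1.74, -1.72 and -1.09), so it and age cannot be fully told apart here. Its part in the Notch1 values was not tested. Against 1 month Notch1 passed at no age with the processed signals, but under normexp with median centring and no loess it passed as lower at 16 months (-0.56, adjusted p = 0.0206) and at 24 months (-0.71, adjusted p = 0.00291).

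A probe outside the rule, A_51_P508510, carries another gene name and is described in the files as notch-1 messenger RNA. It measured 0.55, 0.48 and 0.38 at 6 months, -1.02, -0.22 and 0.32 at 16 months, and 0.22, 0.57 and -0.71 at 24 months. It was lowest on the same 3 arrays, and its 16 month arrays lay below all 6 month arrays, by a log2 difference of -0.78 (adjusted p = 0.769). The named genes whose log2 ratios were most like those of Notch1 over the 9 arrays were Pabpc2 (Pearson r = 0.995), Iqgap1 (r = 0.984) and Dnajc2 (r = 0.982), of 19406 probes searched. For Dtx1 they were Ampd2 (r = 0.992), Senp2 (r = 0.969) and Ovca2 (r = 0.964). These points share arrays and 1 month RNA, and the search was over many probes: 1.15% of them had an r above 0.9 with Notch1 and 0.309% with Dtx1.

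Notch3 (A_51_P220162), a receptor known from immature thymocytes, was above the 1 month level on 9 of 9 arrays but by at most 0.23. Its log2 ratios were 0.23, 0.07 and 0.11 at 6 months, 0.04, 0.16 and 0.00 at 16 months, and 0.03, 0.23 and 0.05 at 24 months. The adjusted p against 1 month ran from 0.165 to 0.468 by limma, and the intervals between ages reached no further than 0.26 from 0 in either direction. Only 16.4% of tested probes had a smaller SD over the 9 arrays. Under normexp with median centring and no loess Notch3 was lower at 24 months (-0.45, adjusted p = 0.00817). For Notch2, the probe A_51_P216397 lists a Notch2 transcript but is filed under another name. It measured 0.02, 0.20 and 0.09 at 6 months, -0.12, -0.17 and 0.10 at 16 months, and 0.13, 0.57 and -0.17 at 24 months, with overlapping ages and adjusted p of 0.323 or more against 1 month.

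Dll1 (A_51_P306017), a Delta-like ligand, was below the 1 month level on 8 of 9 arrays, by at most 0.17. Its values were -0.17, -0.16 and -0.00 at 6 months, -0.08, -0.06 and -0.15 at 16 months, and -0.04, -0.03 and 0.03 at 24 months. Arrays of 24 months lay above those of 16 months without overlap, but by 0.08 (limma adjusted p = 0.862). Under normexp with median centring and no loess, Dll1 passed as lower than 1 month at every age. Its values there were -0.35, -0.35 and -0.42 at 6, 16 and 24 months (limma adjusted p = 0.017, 0.0206 and 0.00341). That setting called 52.4%, 44.5% and 70.9% of all probes at these ages. Jag1, a ligand of the Jagged class, was measured by probe 1 (A_51_P280906) and the dimmer probe 2 (A_52_P634090). Probe 1 gave -0.33, 0.57 and 0.52 at 6 months, 0.32, 0.18 and 0.42 at 16 months, and 0.61, 0.47 and 0.25 at 24 months.

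Jag1 probe 1 was thus above the 1 month level on 8 of 9 arrays, with means of 0.26, 0.31 and 0.44 and adjusted p of 0.322, 0.229 and 0.0840 at 6, 16 and 24 months. Without replicate 1 of 6 months, the array below 0, the means against 1 month were 0.55, 0.31 and 0.44, with limma adjusted p of 0.0319, 0.0409 and 0.0124. The means at 16 and 24 months did not change, and their p fell with the spread that all ages share. Leaving out the array that goes the other way lowers p by selection, so no rise is read from these values. With the processed signals probe 2 did not show the same pattern. It spanned -1.07 to 1.27 within the 24 month arrays, and 97.5% of tested probes had a smaller SD. It was above background in Cy3 on 7 of 9 arrays. Without loess, under normexp and median centring, both probes passed as higher than 1 month at every age with all arrays kept. Probe 1 then gave 0.48, 0.52 and 0.64 at 6, 16 and 24 months, and probe 2 gave 0.61, 0.50 and 0.86. Limma adjusted p ran from 0.00251 to 0.0366. That setting called 52.4%, 44.5% and 70.9% of all probes at these ages. The 11 thymic epithelial markers measured, from cells that supply ligands, had a mean log2 ratio of -0.70 to -0.54 at 6 months, -0.53 to -0.36 at 16 months and -0.42 to 0.09 at 24 months. Over all arrays Ccl25 ran from -2.63 to -1.26 and Prss16 from -2.39 to -0.64. Each other marker of the list lay above 0 on some array, such as Krt5 (-0.09 to 0.33) and Foxn1 (-0.14 to 0.08). The low means thus do not hold for the epithelial markers as a group. The part of epithelial cells in the ligand values was not tested.

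Lfng (lunatic fringe) adds a sugar to Notch receptors and thereby shifts their preference towards Delta-like ligands. Its brighter probe 1 (A_52_P187940) measured -0.05, -0.21 and -0.31 at 6 months, 0.05, 0.14 and 0.16 at 16 months, and 0.08, 0.28 and -0.03 at 24 months. All 6 month arrays were below the 1 month level and below every array of the older ages. The log2 difference was 0.30 at 24 against 6 months (interval 0.06 to 0.54; adjusted p = 0.505) and 0.30 at 16 against 6 months (interval 0.07 to 0.54; adjusted p = 0.769). Probe 2 (A_51_P201226), above background in Cy3 on 5 of 9 arrays, gave -0.00, -0.16 and -0.12 at 6 months, 0.12, 0.09 and 0.43 at 16 months, and -0.27, 0.20 and -0.10 at 24 months. It likewise showed no overlap between 16 and 6 months, but its 24 month arrays spread over both. Under normexp with median centring and no loess probe 2 passed as higher than 1 month at 6 months (0.80, adjusted p = 0.0173) and 24 months (0.85, adjusted p = 0.00528).

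**Figure D3:**
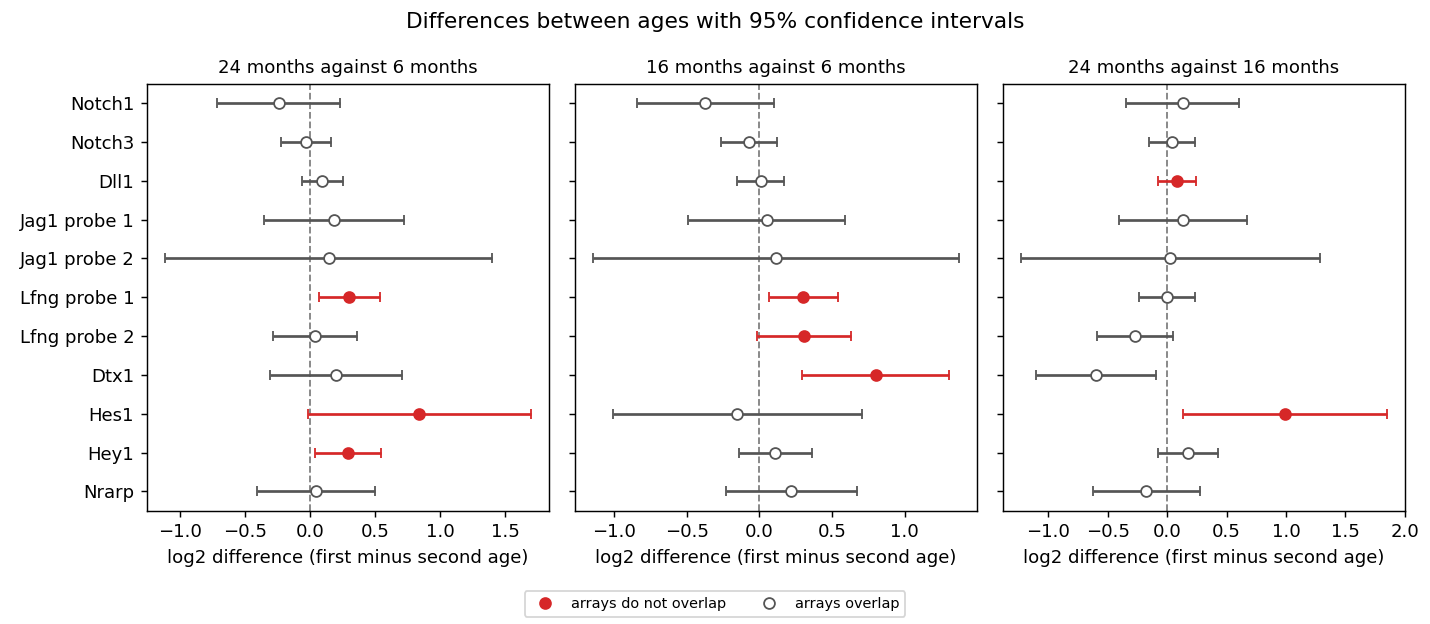
Log2 difference between ages (x axis, first named minus second named) for the 11 member probes (y axis), with 95% confidence intervals from limma; red filled points mark probes whose 3 arrays of each age do not overlap. The largest are Hes1 at 24 against 16 months (0.99), Hes1 at 24 against 6 months (0.84) and Dtx1 at 16 against 6 months (0.80).

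Counted together, 0 of 11 member probes differed between ages at a limma adjusted p under 0.05, and 0% of the 37448 tested probes did in each of the 3 comparisons. At an unadjusted p under 0.05, 2 of 11 members differed at 24 against 6 months, beside 9.11% of all probes. The same number differed at 16 against 6 months, beside 6.38%, and at 24 against 16 months, beside 4.77%. Arrays did not overlap for 3 members at 24 against 6 months (15.9% of all probes), 3 at 16 against 6 months (13.9%) and 2 at 24 against 16 months (10.6%). With 11 probes, shares of this size rest on 2 or 3 probes each.

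Against 1 month, all 3 arrays lay on the same side of 0 for 7 members at 6 months, 6 at 16 months and 5 at 24 months, beside 57.4%, 59.1% and 56.5% of all probes. The median log2 difference of the members was 0.14 at 24 against 6 months, 0.11 at 16 against 6 months and 0.04 at 24 against 16 months, against -0.02, 0.01 and -0.02 over all probes. Against 1 month it was -0.09, 0.07 and 0.11 at 6, 16 and 24 months, against -0.01, -0.01 and -0.02 over all probes. The members did not move together: over the 9 arrays the correlations between their log2 ratios ran from -0.68 (Notch1 with Dtx1) to 0.62, and the probes of Lfng correlated at 0.61.

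The wider pathway was read from a list of other Notch genes, of which 58 of 59 on the array could be tested; Il2ra, Il7r and Ptcra are also early thymocyte markers. Against 1 month, 14 passed at 6 months, all higher, where 7.61% of all probes passed higher and 4.76% lower. At 16 months 19 passed higher and 3 lower (11.4% and 6.59% of all probes), and at 24 months 19 higher and 7 lower (11.6% and 13.3%). Between ages 0 of 58 passed. These splits depended on the dye normalization: with normexp signals, median centring and no loess, 13 were higher and 14 lower at 6 months, 10 and 11 at 16 months, and 12 and 22 at 24 months. That setting called 52.4%, 44.5% and 70.9% of all probes at 6, 16 and 24 months, of which 46.8%, 41.3% and 44.1% were higher.

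Among known target genes, 5 of 18 rose at 6 months, 6 at 16 months and 8 at 24 months, and 0 fell with the processed signals. Of all probes, 7.61%, 11.4% and 11.6% passed higher at these ages, and 4.76%, 6.59% and 13.3% lower. Bcl11b, a transcription factor required for T lineage commitment, was 1.07, 0.91 and 0.93 above 1 month on the log2 scale at 6, 16 and 24 months, and Ccnd3, the cyclin D3 of proliferating early thymocytes, was 0.90, 0.78 and 0.89 above (limma adjusted p from 0.00898 to 0.0414). Il2ra, the CD25 surface marker of early thymocytes, rose by 0.69 at 16 months (adjusted p = 0.0236). Under normexp with median centring and no loess, Bcl11b and Ccnd3 no longer passed at any age, and Ccnd3 turned to -0.04 at 24 months. The targets then split into 4 higher and 4 lower at 6 months, 3 and 4 at 16 months, and 4 and 7 at 24 months. The T lineage factors Tcf7 and Gata3, higher by 0.43 and 0.42 at 24 months with the processed signals, were among those lower, at -0.80 (adjusted p = 0.00447) and -0.53 (adjusted p = 0.0441). Il2ra at 16 months stood at 0.55 there and at 0.31 with normexp and loess, and passed in both. In the authors' scores Bcl11b at 16 months had an adjusted p of 0.0506.

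Of the modulators and ubiquitin ligases, 3 of 12 rose at 6 months, 6 at 16 months and 5 at 24 months. The shares of all probes were 7.61%, 11.4% and 11.6% higher, and 4.76%, 6.59% and 13.3% lower. Dvl2, a Dishevelled protein of the Wnt pathway that can bind Notch, stood 0.82, 0.81 and 1.09 above 1 month (adjusted p 0.0195, 0.0137 and 0.00500). Aak1, a kinase linked to endocytosis and to Numb, rose by 0.74 at 6 months, and Dtx4, a relative of Dtx1, by 0.75 at 24 months. Proteases and gamma-secretase subunits gave 2 of 10 higher at 6 months and 5 at 16 months, and 2 higher and 2 lower at 24 months. Adam17, a sheddase able to cut Notch, rose by 0.63 at 6 months, and Adam10, the main protease of ligand-driven cleavage, by 0.69 at 16 and 0.83 at 24 months. Aph1a, a gamma-secretase subunit, rose by 1.01 at 16 months (adjusted p = 0.0241). Without loess, under normexp and median centring, the modulators split into 2 higher and 2 lower at 6 months, 2 and 2 at 16 months, and 3 and 3 at 24 months. The proteases split into 3 and 1, 2 and 1, and 2 and 3. There Aak1 at 6 months (0.27, adjusted p = 0.135), Adam17 at 6 months (0.28, adjusted p = 0.0755) and Dtx4 at 24 months (0.25, adjusted p = 0.0973) no longer passed, while Dvl2 kept its 3 calls. With normexp and loess, Adam10 was 0.22 at 16 months and 0.23 at 24 months, Aph1a 0.40 at 16 months, and Dvl2 0.54, 0.54 and 0.67, all still past the threshold. In the authors' scores Adam10 at 16 months had an adjusted p of 0.0620.

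In the nuclear complex, 3 of 9 rose at 6 months, 1 rose and 2 fell at 16 months, and 3 rose and 3 fell at 24 months. Here and for the roles below, the shares of all probes were 7.61%, 11.4% and 11.6% higher, and 4.76%, 6.59% and 13.3% lower. Maml1, a Mastermind co-activator, stood at -0.50 at 16 months and -0.60 at 24 months (limma adjusted p = 0.00858 and 0.00467). Rbpj stood at -0.22 and -0.17 (adjusted p = 0.0288 and 0.0491), and Cir1 at -0.60 at 24 months (adjusted p = 0.0254). With median-centred processed signals Rbpj did not pass at 24 months (adjusted p = 0.0728). Snw1, a co-regulator that binds RBPJ, rose by 0.98 at 6 months (adjusted p = 0.0236), and by 0.54 (adjusted p = 0.0316) under normexp with median centring and no loess. That setting called 1 of the 9 higher and 5 lower at 6 months, 0 and 3 at 16 months, and 0 and 7 at 24 months. The other receptors and ligands gave 1 of 5 higher at 6 months, 1 lower at 16 months, and 1 higher and 2 lower at 24 months. Jag2, a Jagged ligand, fell by 0.68 at 24 months (adjusted p = 0.0213), but stood at 0.69 (adjusted p = 0.00877) under normexp with median centring and no loess, and at -0.11 (adjusted p = 0.115) with normexp and loess. Of 4 glycosyltransferases 1 rose, at 16 months. All of these comparisons use the same 1 month channel, so that their calls are not independent.

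**Figure D4:**
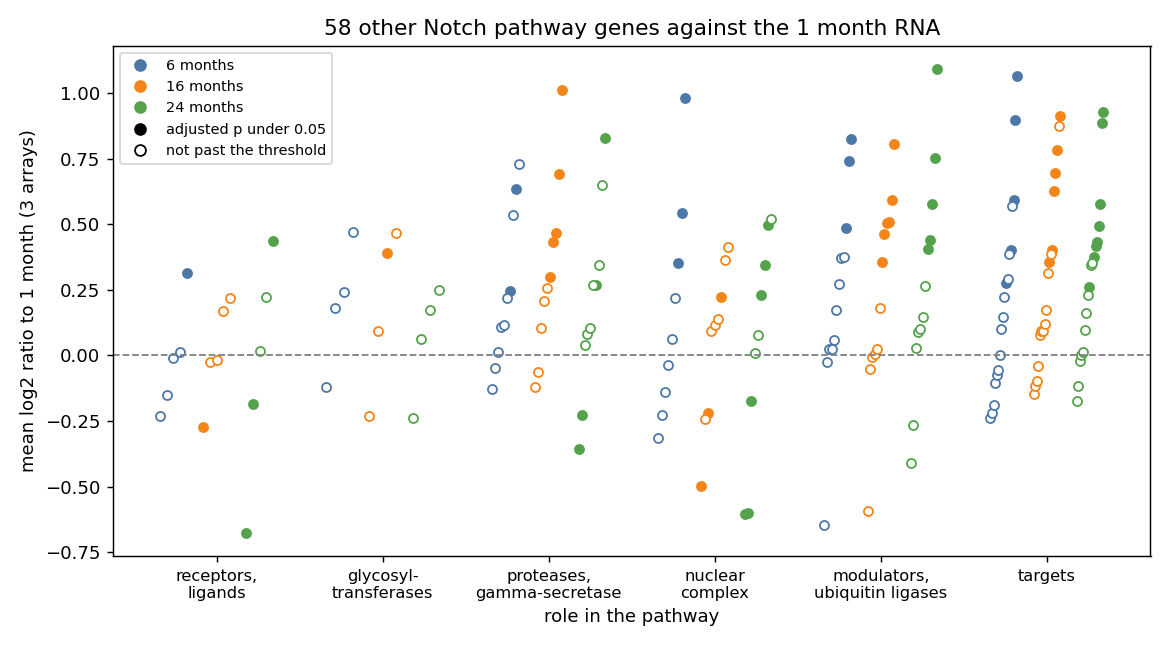
Mean log2 ratio to 1 month RNA over 3 arrays (y axis) of 58 other Notch pathway genes by role (x axis) and age (colour), with filled points for an adjusted p under 0.05. Targets rose in 5, 6 and 8 of 18 genes at 6, 16 and 24 months, beside 7.61%, 11.4% and 11.6% of all probes. With these processed signals every gene that fell lies among the receptors and ligands, the proteases or the nuclear complex.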

How the data were processed

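Total RNA of isolated thymocytes was amplified, labelled and hybridised to 9 Agilent 2-colour arrays, per the labels' protocols. The deposited scanner files hold intensity per spot, processed by the authors with Agilent Feature Extraction, named as version 7.1 in the submitters' processing notes and as 7.5.1 per the file headers, which also record spatial detrending and LOWESS dye normalization. Both samples of an array carry an identical file (9 of 9 arrays). The deposited score per channel follows the log10 processed signal linearly; how the authors made it is not given in the sources used here.

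Log2 ratios of the processed signals (Cy3, older, over Cy5, 1 month) were computed without control spots and outlier-flagged spots, with replicate spots averaged. Probes entered the test where the scanner software marked every Cy5 spot, or every Cy3 spot of at least 1 age, as well above background. One mean per age was fitted across 37448 probes with limma 3.58.1 in R 4.3.3, two-sided, with Benjamini-Hochberg adjustment over all probes, and the fit was tested on simulated data. The 1 month channel counts as 1 control sample, which leaves out its own spread. The labels number 1 older mouse per array beside the 1 month RNA, and 3 arrays per age limit the precision.

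Every member was to be named with each of its probes, the brighter probe standing for the gene. Pathway genes past the threshold were named up to 6 per comparison by size, and the 3 genes most like Notch1 and Dtx1 by correlation. Tcf7, Gata3, Maml1, Rbpj and Cir1 were named beyond this rule. The members and lists were chosen with earlier results of these data known. Alternatives were other background corrections and normalizations, the authors' scores, other filters, fewer arrays, a replicate block and a haemoglobin covariate. The array files name no genome build, and the only coordinates given are those of the RefSeq promoter windows on GRCm38.p6.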

Additional observations from a re-analysis of the deposited data

Results flagged for a closer look

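For 3 member probes every array of 1 age lay on the opposite side of the 1 month level from every array of another age. Hey1 was above it on all 24 month arrays and below it on all 6 month arrays, a log2 difference of 0.29 (limma adjusted p = 0.528). Lfng probe 1 was above it on all 16 month arrays and below it on all 6 month arrays, a difference of 0.30 (adjusted p = 0.769), and Lfng probe 2 behaved likewise with 0.31 (adjusted p = 0.769). The differences were tested in the fit and did not pass the threshold. The signal of the 1 month channel, scaled to each array's upper quartile, was also searched for a stray array in each of the 11 member probes, and 0 stood apart.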

How the results depend on the processing

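The 6 counts of member probes and 66 log2 differences (11 probes in 6 comparisons) were recomputed under 19 other settings, 1 of them added after seeing the data, which gave 1230 values. No alternative called a member between ages. The sign turned in 84 of the 1230, for values of at most 0.31 in size, and 24 of these arose under normexp with median centring and no loess. That setting called 5, 5 and 8 members at 6, 16 and 24 months against 1 month, beside 52.4%, 44.5% and 70.9% of all probes. Among others, it turned the 6 month values to -0.25 (Notch1), -0.23 (Notch3), -0.0012 (Dtx1) and 0.80 (Lfng probe 2). It turned Notch3 to -0.31 at 16 months and -0.45 at 24 months, and Hey1 at 24 months to -0.061. Lfng probe 2 at 16 against 6 months turned to -0.29, and Dll1 at 24 against 16 months to -0.067. It also turned Hes1 at 6 months to 0.68 and at 16 months to 0.41. At 24 months it turned Notch1 to -0.71, Nrarp to 0.28 and Lfng probe 2 to 0.85. It called Notch1 lower at 16 months (-0.56) and Hes1 higher at 24 months (0.82). Dll1 was called lower, and both Jag1 probes higher, than 1 month at every age. The cause was not tested.

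The count at 16 months against 1 month was 0 with only the arrays of that age and 0 with both 16 month arrays high in haemoglobin left out, where 1 sample remained and was taken to vary like the other ages. The count at 24 months was 1 with the haemoglobin covariate and 1 with those arrays left out, the added call being Dtx1. Leaving out each array in turn gave 0 to 1 members at 6 months, 1 to 2 at 16 months and 0 to 1 at 24 months. Without replicate 1 of 6 months, the array on which Jag1 probe 1 lay below 1 month, that probe passed at every age. Without replicate 3 of 16 months Dtx1 passed at 24 months. Dtx1 at 16 months kept its call in each of the 9, with 0.85 to 1.29.

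The replicate block moved no count of members: Dtx1 at 16 months kept 1.03 with adjusted p = 0.0193. Same-numbered arrays of different ages correlated at -0.31 to 0.10 in their deviations from the age means, and different-numbered arrays at -0.26 to 0.33. No pairing by number was seen, though so few arrays cannot exclude it.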
